A study of Mus musculus with 2 samples.

Results

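The insulin-like growth factor (IGF) genes described here are the ligands Igf1 and Igf2, the receptor Igf1r and the binding proteins Igfbp3, Igfbp4, Igfbp5 and Igfbp7. They were chosen by gene symbol, and all 7 are among the 32285 genes of the deposited matrices. Their levels were followed across the cell classes of retinas from mouse pups at postnatal day 6, in 1 control library (Alk1f/f) and 1 library labelled Alk1_ECKO (Alk1f/f Cdh5 CreERT2). Both groups carried the floxed Alk1 alleles. The Alk1_ECKO group also carried an inducible Cre recombinase driven by the promoter of Cdh5, the VE-cadherin gene of endothelial cells. How many animals made up a library, how Cre was induced and which exons were floxed was not given in the labels used here. Dissociated retinal cells were enriched for endothelium with beads against the surface protein CD31 and sequenced as single-cell libraries read from the 3' ends of transcripts. The series title concerns hereditary hemorrhagic telangiectasia, a vascular disease that Alk1 loss in endothelium models in mice.

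IGF1 and IGF2 are secreted growth factors that activate the tyrosine kinase IGF1R, which signals through the PI3K and MAPK branches to growth and survival. Most circulating IGF is held by the binding proteins, which can limit its access to the receptor or carry it to tissue, and which are opened by proteases. In the retina, IGF1 is known as a factor needed for normal vessel growth, and IGFBP3 and IGFBP7 are known as secreted proteins of vascular cells.

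The control library held 8739 barcodes with 54800465 unique molecular identifiers (UMIs), and the Alk1_ECKO library held 5308 barcodes with 62728605 UMIs. The libraries shared 20 barcodes. After filters 7409 control and 4093 Alk1_ECKO cells were retained. Classes were named from marker lists, so that a class name stands for cells like that type. Endothelial cells numbered 314 in control and 1271 in Alk1_ECKO, mural cells 11 and 149, microglia or macrophages 52 and 209, astrocytes 20 and 19, and Müller glia or late progenitors 785 and 190. Neurons and their precursors gave 6 further classes. Clusters with a low mitochondrial share were set aside, 27 cells in control and 1334 in Alk1_ECKO. There was 1 library per genotype, so no difference has a replicate check, no test was made, and genotype and library cannot be told apart. Every interval is at 95% and covers counting error only, not the spread between animals. Levels are in CPM, the UMIs of a gene in a class divided by all gene UMIs of that class and scaled to a common total. Acvrl1, the gene of ALK1, was at 115 CPM in control endothelial cells, against 119 CPM in Alk1_ECKO. Because reads come from the 3' end, which may lie outside the floxed exons, this level does not check the genotype.

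The 7 genes fell into 4 patterns of expression, which both libraries shared. Igf1 was highest in microglia or macrophages, Igf2 and Igfbp5 in astrocytes, Igfbp3, Igfbp4 and Igfbp7 in endothelial cells (with mural cells close behind for Igfbp7), and Igf1r in photoreceptor precursors. These genes were left out of the genes used for clustering, so the classes were not defined by them. In endothelial cells, Igf1 and Igfbp3 were higher in the Alk1_ECKO library, Igfbp4 differed by a log2 ratio of -0.03, and Igf1r was below control by less than 1.5-fold. The positions (mm10) are chromosome 10, 87858265 to 87937042 for Igf1, chromosome 7, 142650766 to 142666816 for Igf2, chromosome 7, 67952827 to 68233668 for Igf1r, and chromosome 11, 7206086 to 7213923 for Igfbp3. Igfbp4 lies on chromosome 11 at 99041244 to 99054392, Igfbp5 on chromosome 1 at 72857932 to 72874884, and Igfbp7 on chromosome 5 at 77349240 to 77408041. Igfbp7 overlaps Polr2b on the opposite strand, and the overlapping antisense genes of Igf1 and Igf2 held 8 and 7 UMIs over all retained cells.

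The promoter windows of 4 genes with endothelial transcripts are shown because Igf1, Igfbp3 and Igfbp7 had a larger share of UMIs in Alk1_ECKO endothelium while Igfbp4 did not. The choice was made with those values known, and the windows of the other members are counted below the sequences. Each window runs from 250 bases before to 50 bases after a transcription start (RefSeq, GRCm38.p6), 5′ to 3′ on the gene's strand. Capitals mark ACGTG or GCGTG, the core letters of the element bound by hypoxia-inducible factors, on either strand (CACGT and CACGC on the printed strand). The windows are chr11:7213874-7214173 on the minus strand for Igfbp3, chr5:77407996-77408295 on the minus strand for Igfbp7, chr10:87860861-87861160 on the plus strand for Igf1 and chr11:99040994-99041293 on the plus strand for Igfbp4.
Igfbp3: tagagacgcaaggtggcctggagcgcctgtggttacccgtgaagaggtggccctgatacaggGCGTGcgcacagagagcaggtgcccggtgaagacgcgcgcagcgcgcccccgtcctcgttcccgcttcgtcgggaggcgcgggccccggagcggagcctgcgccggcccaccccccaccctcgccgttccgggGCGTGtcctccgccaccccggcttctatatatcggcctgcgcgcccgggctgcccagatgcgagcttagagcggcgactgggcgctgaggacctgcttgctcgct
Igfbp7: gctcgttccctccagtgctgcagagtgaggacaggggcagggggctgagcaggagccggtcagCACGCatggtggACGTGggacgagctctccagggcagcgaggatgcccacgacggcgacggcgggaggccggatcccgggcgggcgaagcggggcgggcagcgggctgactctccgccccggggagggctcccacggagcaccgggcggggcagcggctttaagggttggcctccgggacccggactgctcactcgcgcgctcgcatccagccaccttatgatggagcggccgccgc
Igf1: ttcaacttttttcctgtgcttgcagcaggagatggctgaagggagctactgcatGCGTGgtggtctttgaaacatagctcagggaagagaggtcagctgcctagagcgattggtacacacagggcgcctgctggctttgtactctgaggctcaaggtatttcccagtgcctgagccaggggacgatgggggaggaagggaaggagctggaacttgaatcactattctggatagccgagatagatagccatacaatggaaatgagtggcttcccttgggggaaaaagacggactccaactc
Igfbp4: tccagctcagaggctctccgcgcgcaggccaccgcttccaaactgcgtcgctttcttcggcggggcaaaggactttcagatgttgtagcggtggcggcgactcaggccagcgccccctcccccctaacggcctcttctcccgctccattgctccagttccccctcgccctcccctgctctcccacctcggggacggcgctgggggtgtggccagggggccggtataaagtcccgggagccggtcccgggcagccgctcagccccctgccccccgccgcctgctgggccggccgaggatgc
The core letters occurred 2 times in the Igfbp3 window, 2 times in the Igfbp7 window, 1 time in the Igf1 window and 0 times in the Igfbp4 window. Among members not printed, the Igf1r window held 3 although its endothelial ratio was below 0, the Igfbp5 window held 0 although its ratio was past 1.5-fold, and 1 of the 4 Igf2 windows held 1, so the count did not sort the members by ratio. The letters GGCGCC, the core of an element bound by SMAD1 and SMAD5, were found 1 time in the Igf1 window and 0 times in the other members' windows, against 11.9% of all windows holding them. The Igf1 window lies inside the gene span given above, which begins at 87858265, and the sequence at that start was not searched. The letters ACGTG or GCGTG occurred in 43.8% of all 32851 promoter windows of this length, so their presence is common. A match of letters is a description and does not show binding, and the windows of Igfbp3 and Igfbp4 both also held TATA letters (TATAAA or TATATA on either strand), which 17.1% of all windows held.

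**Figure D1:**
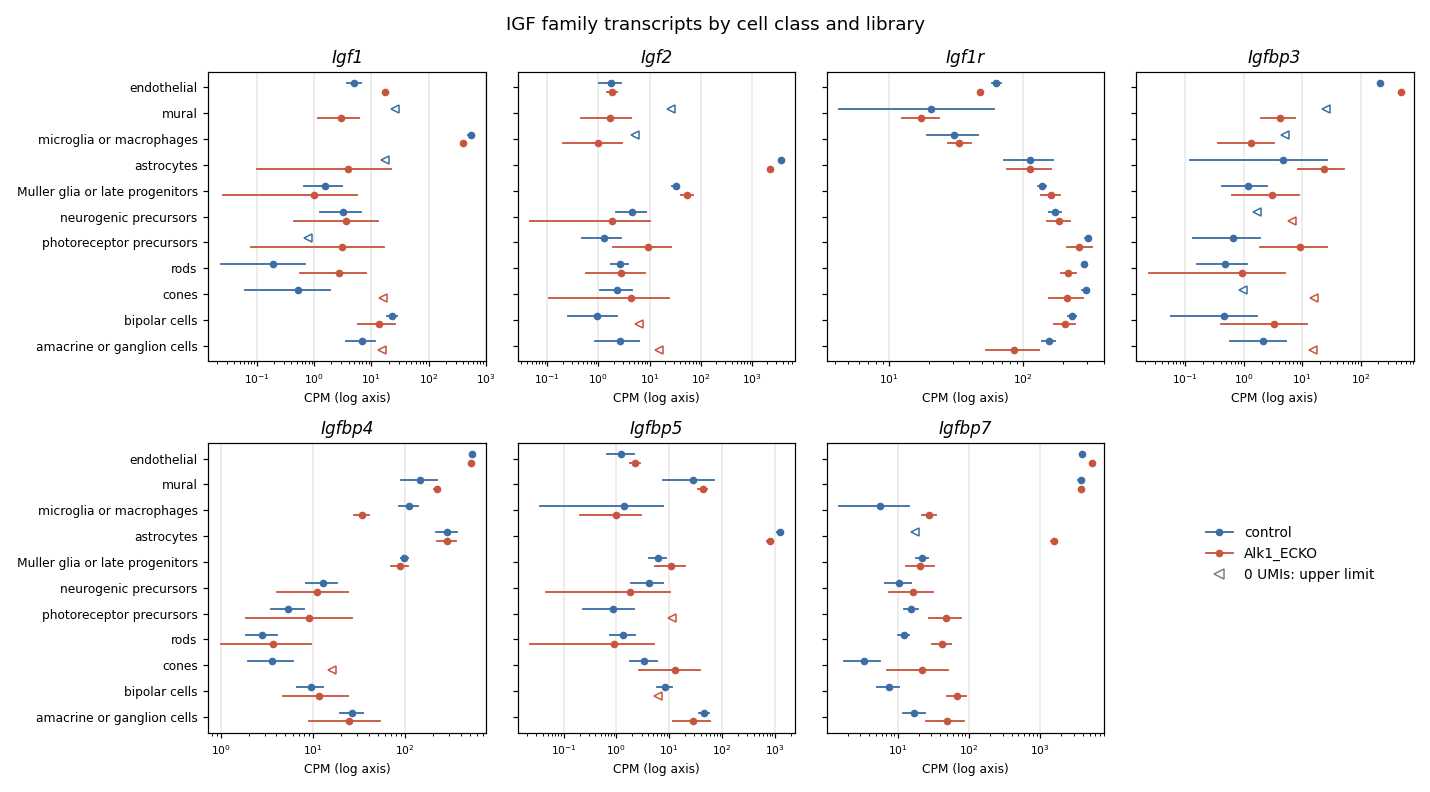
Level of each of the 7 genes (CPM, log axis) in each cell class of the control and Alk1_ECKO libraries. Points are CPM of UMIs summed over the cells of a class, bars are exact Poisson intervals for counting error, and open triangles are the upper limits of classes with 0 UMIs. Igf1 stands out in microglia or macrophages, Igf2 and Igfbp5 in astrocytes, and Igfbp3 in endothelial cells, in both libraries.

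Igf1, the ligand known as a product of macrophages in many tissues, was at 553 CPM (499 to 610) in control against 403 CPM (380 to 426) in Alk1_ECKO microglia or macrophages. The class is one of few cells, and it held 60.4% of all Igf1 UMIs of the control library while making up 0.702% of its cells. In Alk1_ECKO the same class held 52.8% of the Igf1 UMIs in 5.11% of the cells. The log2 ratio of Alk1_ECKO to control was -0.46 (-0.62 to -0.29), short of the 1.5-fold difference that counts here as higher or lower. Among the 34 control and 141 Alk1_ECKO cells without a UMI of Cdh5, Pecam1 or Cldn5, the ratio was -0.594, just past that fold. The levels there were 634 CPM (565 to 709) and 420 CPM (392 to 450). With every cell reduced at random to 2000 UMIs, 40.4% of control and 38.5% of Alk1_ECKO cells of this class held an Igf1 UMI. The same share in rods, photoreceptors that should lack the transcript, was 0.0978% in control and 0 of 242 cells in Alk1_ECKO, which allows up to 1.24%.

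Outside the macrophage lineage, the next highest Igf1 level in control was in bipolar cells, the interneurons between photoreceptors and ganglion cells. There it was 22.7 CPM (18.5 to 27.7) from 99 UMIs in 69 cells, and it was 13.4 CPM (5.78 to 26.4) from 8 UMIs in 7 cells in Alk1_ECKO. The intervals overlap, and with 8 UMIs a difference was not detectable at this depth. Both control bipolar clusters held it, at 18.3 CPM and 31.6 CPM. No single cell accounted for the control signal, since the highest bipolar cell held 5 UMIs. In amacrine or ganglion cells all 13 control UMIs lay in 3 cells.

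Endothelial Igf1 was at 4.99 CPM (3.73 to 6.55) in control against 17.3 CPM (16.04 to 18.7) in Alk1_ECKO, from 52 and 664 UMIs. The log2 ratio was 1.80 (1.39 to 2.23), and the intervals of the libraries did not overlap. Under a mix of sub-clusters made common to the libraries, the log2 ratio was 0.91. The control value rested on few cells: 27 of the 52 UMIs lay in 5 cells and 13 in a single cell, whereas the 5 highest Alk1_ECKO cells held 10.5% of the UMIs. Of endothelial cells thinned to 2000 UMIs, 1.97% in control and 3.17% in Alk1_ECKO held an Igf1 UMI, and these binomial intervals overlap. The median depths before thinning were 19311.5 and 16246 UMIs in endothelial cells, against 2665 and 2197 in rods.

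Microglial transcripts were read in the same endothelial cells. The 16 listed microglial or macrophage markers summed to 58.6 CPM in control against 65.6 CPM in Alk1_ECKO endothelial cells, with 2 and 0 of the markers at 0. C1qa, a complement gene of microglia, was at 0.288 CPM and 2.82 CPM, and Cx3cr1, the microglial chemokine receptor, at 0.384 CPM and 1.02 CPM. In endothelial cells there were 17.3 Igf1 UMIs per C1qa UMI in control, from 3 C1qa UMIs, and 6.15 in Alk1_ECKO. In microglia or macrophages there were 0.101 in control and 0.0602 in Alk1_ECKO. In endothelial cells with no UMI of any of those markers, a split chosen after seeing the data, Igf1 was at 8.59 CPM (4.44 to 15.01) in 112 control cells and 21.1 CPM (17.2 to 25.5) in 465 Alk1_ECKO cells. The log2 ratio there was 1.29, from 12 Igf1 UMIs in 7 control cells and 105 in 57 Alk1_ECKO cells. In cells with 4 or more such UMIs, Igf1 was at 4.95 CPM in control against 16.1 CPM in Alk1_ECKO. These groups also differ in depth, with medians of 10032.5 and 5950.0 UMIs per cell where no marker UMI was held and 81149.5 and 74810.5 where 4 or more were. The part of microglial RNA in the Igf1 ratio was not tested.

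**Figure D2:**
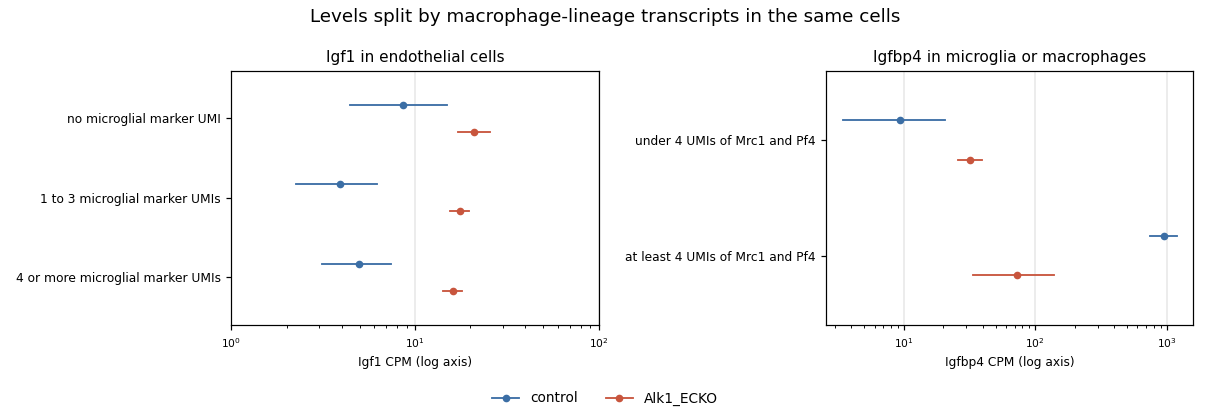
Left, Igf1 level (CPM, log axis) in endothelial cells grouped by their UMIs of 16 microglial or macrophage markers. Right, Igfbp4 level (CPM, log axis) in microglia or macrophages grouped by their UMIs of Mrc1 and Pf4; bars are exact Poisson intervals. Endothelial Igf1 was higher in Alk1_ECKO in all 3 groups, and control Igfbp4 lay mostly in the 7 cells with at least 4 UMIs of Mrc1 and Pf4.

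Igf1 differed between endothelial sub-clusters as well. The tip-like sub-cluster, named for genes of the cells that lead vessel sprouts, had the highest Alk1_ECKO level, 35.5 CPM (31.2 to 40.2), against 8.88 CPM (3.57 to 18.3) from 7 UMIs in 25 control cells. In the cycling sub-cluster it was 5.88 CPM and 10.9 CPM, with a log2 ratio of 0.89 (0.29 to 1.55). In the sub-cluster like barrier capillaries, the mature exchange vessels of the retina, it was 3.22 CPM (1.76 to 5.40) and 7.80 CPM (3.14 to 16.1), from 14 and 7 UMIs. The last pair of intervals overlaps. The microglial markers summed to 60.9 CPM in control against 47.7 CPM in Alk1_ECKO tip-like cells. In the sub-cluster led by Mgp the same sum was 524 CPM, and Igf1 was at 10.0 CPM from 7 UMIs.

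Igf2, the fetal-type ligand of an imprinted locus, was an astrocyte transcript in these libraries. Astrocytes lay at 3681 CPM (3428 to 3948) in control against 2266 CPM (2085 to 2458) in Alk1_ECKO, and held 75.7% and 77.1% of all Igf2 UMIs in 20 and 19 cells. All 20 control astrocytes and 18 of 19 Alk1_ECKO astrocytes held an Igf2 UMI, with medians of 33 and 26 UMIs per cell. The class carried the astrocyte genes Gfap at 616 CPM and 629 CPM and Pax2 at 254 CPM and 156 CPM. The log2 ratio of Igf2 was -0.70 (-0.86 to -0.54). It was -0.50 among the 16 control and 14 Alk1_ECKO astrocytes without a UMI of Cdh5, Pecam1 or Cldn5, which is within 1.5-fold, so the call was not kept in those cells.

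H19, the noncoding RNA of the same imprinted locus, had the same main source as Igf2, at 936 CPM in control against 762 CPM in Alk1_ECKO astrocytes. Elsewhere Igf2 was sparse. In Müller glia or late progenitors it was at 32.1 CPM in control against 54.0 CPM in Alk1_ECKO, with a log2 ratio of 0.75 (0.28 to 1.199), which turned to -0.74 when the members could enter the genes used for clustering. Of the 54 Alk1_ECKO UMIs, however, 35 lay in 1 cell and 42 in 3 cells, and of the 166 control UMIs 98 lay in 3 cells. The main cluster of this class held 9.11 CPM (6.41 to 12.6) in control against 13.2 CPM (6.82 to 23.0) in Alk1_ECKO. Endothelial Igf2 was at 1.73 CPM (1.02 to 2.73) and 1.85 CPM (1.45 to 2.34), against 2.61 CPM and 2.76 CPM in rods. It was uneven, with 14 of the 18 control UMIs in 3 cells and 15 of the 71 Alk1_ECKO UMIs in 1 cell. In Alk1_ECKO barrier capillary-like cells it was at 8.92 CPM (3.85 to 17.6) from 8 UMIs. How much of endothelial Igf2 was free RNA was not tested.

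Igf1r, the receptor, was read in every class and was higher in neurons than in vessels. In control it was at 309 CPM in photoreceptor precursors, 295 CPM in cones, 285 CPM in rods, 233 CPM in bipolar cells, 174 CPM in neurogenic precursors, 156 CPM in amacrine or ganglion cells and 139 CPM in Müller glia or late progenitors. The levels of the 3 photoreceptor classes had overlapping intervals. Astrocytes followed at 113 CPM, endothelial cells at 63.6 CPM (58.9 to 68.7), microglia or macrophages at 30.8 CPM and mural cells at 20.8 CPM.

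Alk1_ECKO kept this order at its top and at its foot, with 265 CPM in photoreceptor precursors and 17.5 CPM in mural cells. Igf1r was within 1.5-fold in 10 of the 11 classes. The exception was amacrine or ganglion cells, at 86.4 CPM (53.5 to 132) from 21 UMIs in Alk1_ECKO, a log2 ratio of -0.85 (-1.56 to -0.21). In endothelial cells Igf1r was at 48.3 CPM (46.1 to 50.6) in Alk1_ECKO and its log2 ratio was -0.40 (-0.53 to -0.27). The median log2 ratio of all 12524 measured endothelial genes was -0.21, and relative to it Igf1r was at -0.18.

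Among endothelial sub-clusters with at least 20 cells in each library, control Igf1r was highest in the one led by Hbb-bt, which no marker list named, and lowest in cycling and tip-like cells. It was 115 CPM (87.3 to 148) in the sub-cluster led by Hbb-bt, 90.5 CPM (81.8 to 99.9) in barrier capillary-like cells, 38.2 CPM (32.7 to 44.5) in cycling cells and 33.0 CPM (21.5 to 48.3) in tip-like cells. The corresponding Alk1_ECKO levels were 91.9, 72.4, 39.3 and 46.1 CPM. Barrier capillary-like cells were 161 of the 314 control endothelial cells and 43 of the 1271 Alk1_ECKO cells. When a common mix of sub-clusters was imposed on the 2 libraries, the Igf1r log2 ratio was 0.03.

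Igfbp3, the main binding protein of circulating IGF, was restricted to endothelium more than any other of the 7 genes in control, where endothelial cells held 98.5% of its UMIs. In Alk1_ECKO they held 86.4%, and the set-aside low-mitochondrial and mixed endothelial and mural clusters held 6.69% and 6.76%. Its endothelial level was 215 CPM (206 to 224) in control against 484 CPM (477 to 491) in Alk1_ECKO. The log2 ratio was 1.17 (1.11 to 1.24), a 2.25-fold difference. No other class exceeded 4.70 CPM in control or 23.4 CPM in Alk1_ECKO.

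More cells held the transcript, and cells that held it held more. At 2000 UMIs per cell, 19.4% of control and 44.0% of Alk1_ECKO endothelial cells had an Igfbp3 UMI, against 0.196% and 0 of 242 in rods. At 5000 UMIs per cell, the 90th percentile was 2 UMIs in 289 control cells and 6 UMIs in 923 Alk1_ECKO cells, and 193 and 307 cells held none.

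The endothelial sub-clusters differed in Igfbp3 over a wide range. Tip-like cells were at 364 CPM (323 to 409) in control against 889.7 CPM (868 to 912) in Alk1_ECKO, a log2 ratio of 1.29 (1.12 to 1.47). Cycling cells were at 334 CPM and 444 CPM, within 1.5-fold, with a log2 ratio of 0.41 (0.33 to 0.49). Barrier capillary-like cells were at 88.9 CPM (80.3 to 98.2) and 178 CPM (152 to 208), a log2 ratio of 1.004 (0.73 to 1.27). The sub-cluster led by Hbb-bt was at 71.9 CPM and 62.9 CPM with overlapping intervals. The 2 sub-clusters led by Apod, nearly all from Alk1_ECKO, were at 400.2 CPM and 268 CPM there, and the sub-cluster led by Mgp, which scored on the MHC class II and the arterial list and held 181 Alk1_ECKO and 0 control cells, was at 367 CPM. The sub-cluster led by Rgs5, a pericyte gene, with 12 control and 176 Alk1_ECKO cells, was at 87.4 CPM and 229.7 CPM. Among sub-clusters with at least 20 cells in each library, Igfbp3 was thus highest in tip-like cells in both libraries. It was lowest there in barrier capillary-like cells and cells led by Hbb-bt. Under a common mix of the 5 sub-clusters with at least 10 cells in each library, in which that led by Rgs5 weighs 19.03%, the log2 ratio was 0.88, and without cycling cells it was 2.02.

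**Figure D3:**
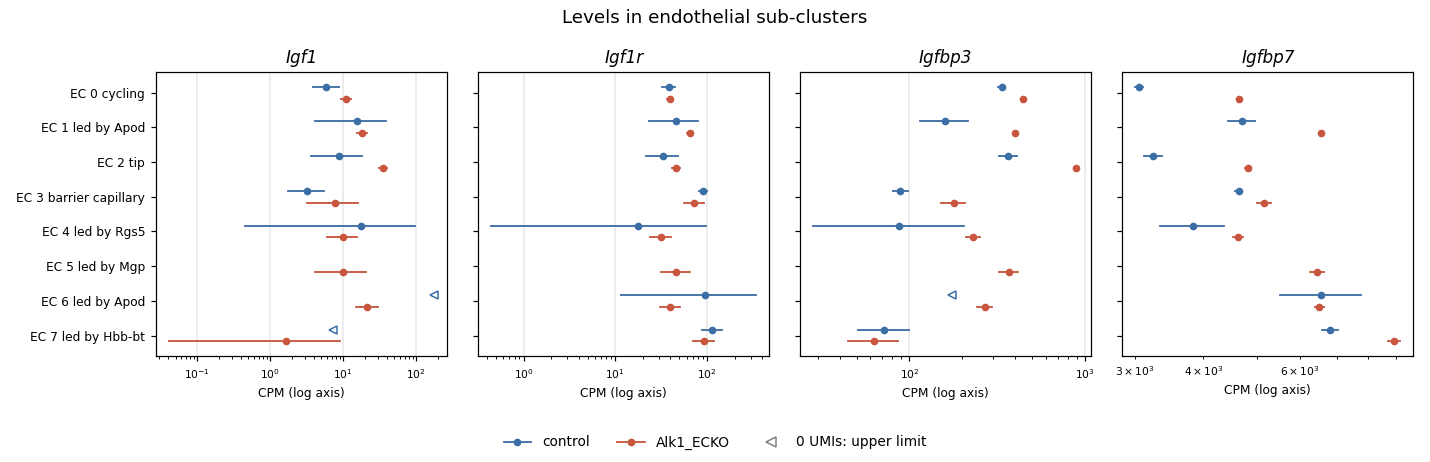
Igf1, Igf1r, Igfbp3 and Igfbp7 (CPM, log axes of different range) in the 8 endothelial sub-clusters of each library, with exact Poisson intervals. Igfbp3 was highest in tip-like cells and Igf1r in barrier capillary-like cells and cells led by Hbb-bt among sub-clusters with at least 20 cells in each library.

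Igfbp4, a binding protein that inhibits IGF action and is cleaved by the protease PAPP-A, was at 535 CPM (521 to 549) in control against 523 CPM (516 to 530) in Alk1_ECKO endothelial cells. The log2 ratio was -0.03 (-0.08 to 0.01). Thinned to 2000 UMIs, 58.9% and 59.1% of the cells held it, against 0.489% and 0.413% of rods. Among sub-clusters with at least 20 cells in each library it varied less than Igfbp3. Control levels ran from 513 CPM in barrier capillary-like to 645 CPM in tip-like cells. In Alk1_ECKO Igfbp4 ran from 353 CPM in the sub-cluster led by Hbb-bt to 641 CPM in tip-like cells. Its log2 ratio was -0.01 in both tip-like and cycling cells and -0.10 in barrier capillary-like cells. It was -0.57 in the sub-cluster led by Hbb-bt, at 525 CPM and 353 CPM.

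Astrocytes were the next highest source of Igfbp4, at 282 CPM in control against 281 CPM in Alk1_ECKO, followed by mural cells at 145 CPM (90.1 to 222) and 222 CPM (203 to 241). The mural log2 ratio was 0.61 (-0.02 to 1.31), past 1.5-fold but from 21 control UMIs in 11 cells. Müller glia or late progenitors were at 97.4 CPM and 87.0 CPM, and rods at 2.81 CPM and 3.68 CPM.

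In microglia or macrophages Igfbp4 was at 109 CPM (86.2 to 136) in control against 33.7 CPM (27.5 to 40.8) in Alk1_ECKO, a log2 ratio of -1.70 (-2.14 to -1.25). The control UMIs were not spread over the class. Of 78 UMIs, 72 lay in the 7 control cells with at least 4 UMIs of Mrc1 and Pf4, genes of perivascular and border macrophages. Those cells were at 949 CPM, while the other 45 control cells were at 9.39 CPM (3.45 to 20.4). The 6 Alk1_ECKO cells above the same limit were at 73.3 CPM (33.5 to 139), and the remaining 203 were at 32.0 CPM (25.9 to 39.2). Among cells below the limit Igfbp4 was thus higher, not lower, in Alk1_ECKO. These values came from 6 UMIs in 5 control cells and 94 UMIs in 65 Alk1_ECKO cells. The part of free endothelial RNA in this difference was not tested. Mrc1 itself was at 336 CPM and 20.9 CPM in the class, and Pf4 at 788 CPM and 5.56 CPM. This split was chosen after seeing the data.

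Igfbp5, a binding protein that adheres to extracellular matrix, was at 1246 CPM (1100.3 to 1405) in control against 809 CPM (702 to 927) in Alk1_ECKO astrocytes. Every astrocyte held it in both libraries, with medians of 10 and 6 UMIs per cell, and the log2 ratio was -0.62 (-0.89 to -0.36). Without astrocytes that held an endothelial UMI, the levels were 1018 CPM and 740.2 CPM, a log2 ratio of -0.46 that is within 1.5-fold. Amacrine or ganglion cells followed in control at 46.5 CPM (37.3 to 57.2), with 24 of 316 cells holding a UMI, and were at 28.8 CPM (11.6 to 59.4) in Alk1_ECKO, intervals that overlap. Bipolar cells held 36 UMIs at 8.26 CPM in control and 0 in Alk1_ECKO, where 0 UMIs allow up to 5.02 CPM. Mural Igfbp5 was at 27.7 CPM in control, all 4 UMIs in 1 cell, and at 43.0 CPM in Alk1_ECKO, where 24 of 149 cells held it.

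Endothelial Igfbp5 was at 1.25 CPM (0.664 to 2.13) in control against 2.24 CPM (1.80 to 2.77) in Alk1_ECKO, from 13 and 86 UMIs. The log2 ratio of 0.85 passed 1.5-fold, but its interval ran from -0.002 to 1.81. In barrier capillary-like cells it was 1.15 CPM and 29.0 CPM, with the 26 Alk1_ECKO UMIs in 5 cells. Mural markers in endothelial cells summed to 9.41 CPM in control against 53.4 CPM in Alk1_ECKO, with 2 and 0 of 14 markers at 0, and their part in the Igfbp5 ratio was not tested. In barrier capillary-like cells the same sum was 5.74 CPM and 4.46 CPM.

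Igfbp7, a secreted protein of vascular basement membrane with weak IGF binding, was the transcript that marked all vascular cells. Endothelial cells were at 3969.9 CPM (3932 to 4008) in control against 5336 CPM (5313 to 5359) in Alk1_ECKO, and mural cells at 3803 CPM (3492 to 4135) and 3753 CPM (3676 to 3832). At 2000 UMIs per cell 99.7% and 99.6% of endothelial cells held it, against 2.74% and 5.79% of rods. The endothelial log2 ratio was 0.43 (0.41 to 0.44), short of 1.5-fold, and the mural one was -0.02 (-0.14 to 0.11). Thinned to 5000 UMIs, the median endothelial cell held 21 UMIs in control and 28 in Alk1_ECKO.

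Igfbp7 was past 1.5-fold in 1 of the 4 sub-clusters with at least 20 cells in each library, the cycling one, and above control with intervals apart in the other 3. Cycling cells were at 3057 CPM and 4636 CPM (log2 ratio 0.60, 0.57 to 0.63), and tip-like cells at 3239 CPM and 4819 CPM (0.57, 0.52 to 0.63). Barrier capillary-like cells were at 4639 CPM and 5161 CPM, with a log2 ratio of 0.15 (0.11 to 0.20). The sub-cluster led by Hbb-bt was the highest, at 6809 CPM and 8910.5 CPM. Among these 4, the order of Igfbp7 in control was that of Igf1r except for the lowest pair, and differed from that of Igfbp3.

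Outside vessels Igfbp7 was low. Rods were at 12.3 CPM (10.3 to 14.6) in control against 42.3 CPM (31.0 to 56.4) in Alk1_ECKO, and bipolar cells at 7.57 CPM and 68.6 CPM, the latter with 24 of 41 UMIs in 3 cells. In control there were 1.33 Igfbp7 UMIs per UMI of Cldn5, an endothelial junction gene, in endothelial cells, and 1.21 in rods. In Alk1_ECKO the same numbers were 2.42 and 3.29, the latter from 46 Igfbp7 and 14 Cldn5 UMIs. Endothelial cells were 4.24% of the control and 31.1% of the Alk1_ECKO library. How much of the neuronal Igfbp7 was free endothelial RNA was not tested. In Alk1_ECKO astrocytes Igfbp7 was at 1605 CPM, yet 393 of its 411 UMIs lay in 1 cell, and astrocytes without a UMI of Cdh5, Pecam1 or Cldn5 were at 37.8 CPM (12.3 to 88.1). Control astrocytes held 0 UMIs, which allows up to 14.1 CPM.

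**Figure D4:**
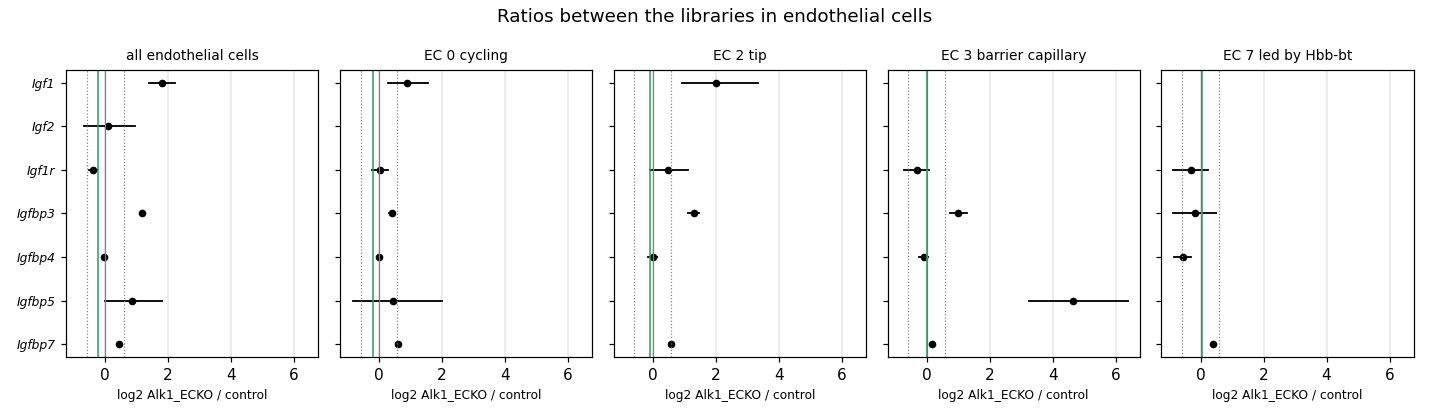
log2 ratio of CPM (Alk1_ECKO over control) with exact conditional binomial intervals, for all endothelial cells and for the 4 sub-clusters with at least 20 cells in each library. Members with fewer than 30 UMIs are not drawn, dotted lines mark 1.5-fold and the green line marks the median of all measured genes. Igf1 and Igfbp3 lie above 1.5-fold in endothelial cells and in tip-like cells.

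Counted together, 3 of the 7 genes were higher in Alk1_ECKO endothelial cells (Igf1, Igfbp3 and Igfbp5) and 0 were lower. Of all 12524 genes measured there, 5.85% were higher and 20.6% lower by the same fold. In mural cells 2 of 4 measured members were higher and 0 lower, where 25.4% of all genes were higher and 21.1% lower, so that class with 11 control cells gives little beyond its background. In microglia or macrophages 1 of 4 was higher and 1 lower, against 7.04% and 19.5% of all genes. The higher one was Igfbp7, at 5.60 CPM from 4 UMIs in control and 27.8 CPM in Alk1_ECKO, where 64 of 209 cells held it, and the part of free endothelial RNA in it was not tested. In astrocytes 0 were higher and 2 lower of 4 with a ratio, against 14.5% and 16.7%. In Müller glia or late progenitors 2 of 5 were higher and 0 lower, against 4.2% and 24.3%. These were Igf2 and Igfbp5. For Igf2, 35 of the 54 Alk1_ECKO UMIs lay in 1 cell. Its log2 ratio of 0.75 turned to -0.74 when the members could enter the genes used for clustering. Igfbp5 had 32 control and 11 Alk1_ECKO UMIs there, and its log2 ratio of 0.83 had an interval of -0.31 to 1.85. In neurons the single call upward per class was of Igfbp7, at the low levels that rods and bipolar cells showed. It was 1 of 3 measured members in neurogenic precursors against 6.22% of all genes, 1 of 2 in photoreceptor precursors against 8.64%, 1 of 4 in rods against 5.06%, 1 of 4 with a ratio in bipolar cells against 6.86%, and 1 of 4 in amacrine or ganglion cells against 9.39%. In cones 0 of 1 was called, where 10.1% of all genes were higher. The calls downward were of Igf1 in bipolar cells, 1 of 4 against 22.7%, and of Igf1r and Igfbp5 in amacrine or ganglion cells, 2 of 4 against 27.8%. In tip-like cells Igf1 and Igfbp3 were the members called higher of 5 measured, where 12.9% of all genes were higher. In cycling cells Igf1 and Igfbp7 were, where 5.69% of all genes were higher. In barrier capillary-like cells Igfbp3 and Igfbp5 were, where 6.95% were. No member passed the fold in cells led by Hbb-bt, where 16.1% of all genes were higher.

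The rest of the pathway, a list of 37 genes, had 27 measured in endothelial cells. Of these 5 were higher and 6 lower in Alk1_ECKO, and their median log2 ratio of -0.21 was the same as that of all measured genes. Among 5 measured receptor adaptors and substrates, 4 were lower and 0 higher, where 20.6% of all genes were lower. Measured against the median gene, Grb14 stays past 1.5-fold and the other 3 do not. Grb14, an adaptor that inhibits insulin-family receptors, was at 40.6 CPM and 16.3 CPM (log2 ratio -1.31, -1.49 to -1.13), and the related Grb10 at 136 CPM and 84.0 CPM. Sos1 and Gigyf1 had log2 ratios of -0.59 and -0.60, just past the fold. All 8 genes of the PI3K branch were measured and lay within 1.5-fold, among them Akt1 at 0.13. No ratio of this list was recomputed under the common mix of sub-clusters, which moved Igf1r from -0.40 to 0.03. The libraries differed in this makeup, with 161 barrier capillary-like cells among 314 in control and 43 among 1271 in Alk1_ECKO. The part of makeup in the lower values of Grb10, Grb14, Insr and Htra1 was not tested.

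Insr, the insulin receptor that can pair with IGF1R, was at 149.6 CPM in control against 79.5 CPM in Alk1_ECKO endothelial cells, a log2 ratio of -0.91 (-1.002 to -0.82). Igf2r, which clears IGF2, was at 53.9 CPM and 52.1 CPM. Htra1, a secreted protease that cleaves IGF-binding proteins, was at 115 CPM and 44.1 CPM (-1.38, -1.49 to -1.27). Pappa and Pappa2, proteases of binding proteins, had 0 UMIs in the endothelial cells of both libraries, which allows up to 0.288 CPM in control against 0.0783 CPM in Alk1_ECKO. Their inhibitor Stc1 was at 12.6 CPM and 19.7 CPM (0.65, 0.38 to 0.93), and Adam12, a protease of Igfbp3 and Igfbp5, at 8.93 CPM and 14.5 CPM (0.70, 0.38 to 1.04). Igf2bp2, which binds Igf2 mRNA, was at 0.576 CPM from 6 UMIs and 3.42 CPM. H19 was at 1.82 CPM and 6.50 CPM, with 4.14 CPM and 33.4 CPM in barrier capillary-like cells and 78.9 CPM in the Alk1_ECKO sub-cluster led by Mgp.

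**Figure D5:**
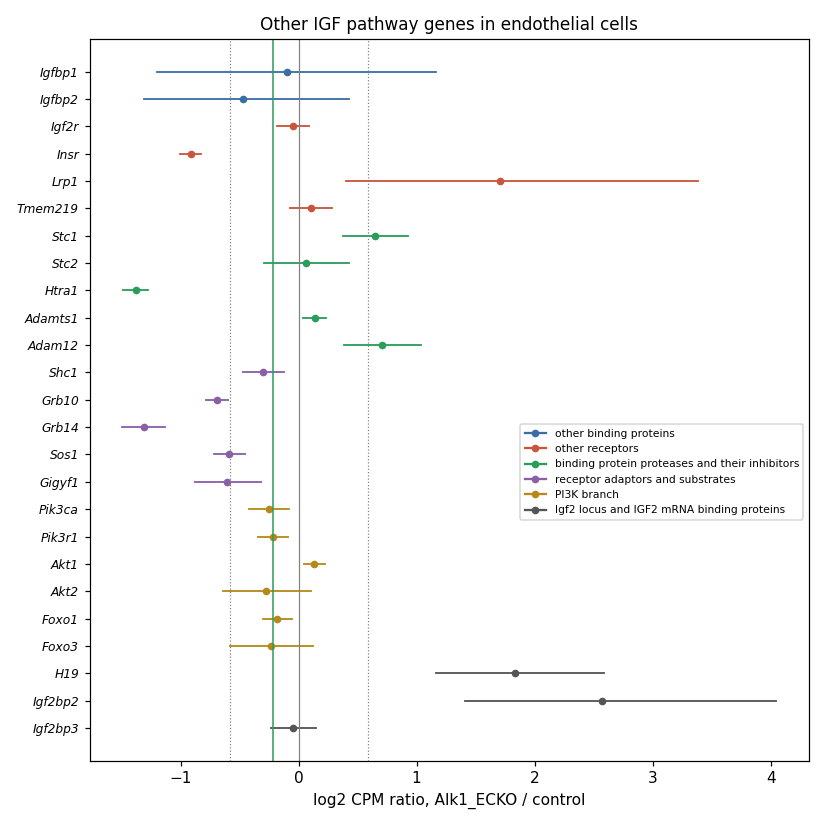
log2 ratio of CPM (Alk1_ECKO over control) in endothelial cells for measured genes of the IGF pathway list, coloured by role, with exact conditional binomial intervals. Dotted lines mark 1.5-fold and the green line the median of all measured genes, -0.21. Insr, Htra1, Grb10 and Grb14 lie below the lower line, without adjustment for the mix of sub-clusters.

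Igfbp2, a binding protein outside the 7 genes, was near absent from endothelium, unlike Igfbp3. It was at 1.63 CPM and 1.17 CPM in endothelial cells, and at 1091 CPM and 644 CPM in astrocytes. In neurogenic precursors it was at 117 CPM (103 to 132) in control against 445 CPM (391 to 504) in Alk1_ECKO, a log2 ratio of 1.93 (1.67 to 2.19). Bipolar cells were at 115 CPM and 388 CPM (1.75, 1.52 to 1.98), Müller glia or late progenitors at 77.6 CPM and 145 CPM (0.90, 0.62 to 1.18). The bipolar difference held in both bipolar clusters, at 86.2 CPM and 403 CPM in one and 174 CPM and 360.0 CPM in the other. Igfbp2 was also higher in rods and photoreceptor precursors, with log2 ratios of 1.75 and 1.67 at levels of at most 33.5 CPM. In Alk1_ECKO, however, 16 of the 35 rod UMIs lay in 1 cell, and all 11 UMIs of photoreceptor precursors lay in 1 of their 2 clusters. Of the same 37 genes, Müller glia or late progenitors had 2 higher and 11 lower of 28 measured, neurogenic precursors 4 and 7 of 22, photoreceptor precursors 4 and 5 of 22, rods 1 and 6 of 21, and bipolar cells 2 and 6 of 21. All genes measured in these classes were higher in 4.2% to 8.64% and lower in 21.1% to 25.8%.

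The genes with the most similar pattern were taken by Pearson correlation of log2(CPM + 10) over 29 points, which are 18 cell groups by library with at least 20 cells, among 7793 genes. Points of one library share its depth and free RNA, so r is a description. Igf1 was closest to Naip2 (r = 0.94), Ms4a6d and Gna15, Igf2 to Mlc1 (0.97), Slc4a4 and Vit, and Igf1r to Baz2b (0.95), Rbm39 and Kdm5b. Igfbp3 was closest to Clec1a (0.98), Exoc3l4 and Cav1, Igfbp4 to Snx3 (0.97), Fkbp9 and Rbpms, Igfbp5 to Vcan (0.94), Cpxm1 and Clmn, and Igfbp7 to Tm4sf1 (0.99), Foxf2 and Esam.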

How the data were processed

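Per the file headers, the deposited values are raw UMI counts made with Cell Ranger 5.0.1. Cell Ranger 6.1.1, FastQC 0.11.9 and the mm10 build appear in the submitters' processing notes. The kit was a 10x Genomics 3' kit, per the labels' protocols, and counts were used as deposited. Whether intronic reads were counted is not given in the sources used here. A cell needed 1000 UMIs, 500 genes and a mitochondrial share of 10% or less. Scrublet's automatic threshold called 0 control and 2 Alk1_ECKO cells, so the highest scores were removed at 0.8% per 1000 cells, 500 and 144 cells.

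Both libraries were clustered together (scanpy 1.11.5, leidenalg 0.10.2, resolution 1.0, endothelial cells 0.6) on 3000 variable genes without the 7 members. A cluster took the marker list with the highest mean z-score (at least 0.8, at least 3 markers). A cluster, but not an endothelial sub-cluster, was set aside when a second list reached at least 1 within 0.6, the mitochondrial share was under 1% or the doublet score was over 0.12. These naming rules were written and revised after the clusters had been seen. No venous or separate arterial endothelial sub-cluster was named.

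CPM values come from UMIs summed over the cells of a class in a library. Levels have exact Poisson intervals, ratios exact conditional binomial ones and shares Clopper-Pearson ones, none of which holds cell-to-cell spread. A gene was measured from 30 UMIs over both libraries and called from 1.5-fold. A count of 0 was given a limit of 3 counts. With 1 library per group no test was made across cells. edgeR 4.0.16 gave TMM scaling only, as an alternative. Intervals were tested on counts simulated with Poisson error, which they assume, so this cannot check them against cell-to-cell spread. Positions are from GENCODE (mm10) and promoters from RefSeq (GRCm38.p6), and all 7 members matched in both. The members and lists were chosen with earlier results of these data known. Of the pathway list, 2 measured genes are counted but not reported here by name or in the plot. Named genes are the members, genes of the pathway and marker lists, Acvrl1 and the 3 most similar genes per member. Hbb-bt is a marker, while Apod and Mgp, which lead sub-clusters, are not covered by it and were picked with their values known.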

Additional observations from a re-analysis of the deposited data

Results flagged for a closer look

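In astrocytes the Igf2 log2 ratio was -0.70, while the class of Müller glia or late progenitors gave 0.75, opposite directions under the same contrast. The latter turned to -0.74 when the members could enter the variable genes, so that both then went the same way. The difference between these ratios was not tested. Among Müller glia or late progenitors, 35 of the 54 Alk1_ECKO UMIs lay in 1 cell, while 20 of 20 control and 18 of 19 Alk1_ECKO astrocytes held an Igf2 UMI.

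The clusters with a low mitochondrial share, which the report's main comparisons leave out, held 1334 Alk1_ECKO and 27 control cells. In 1 alternative those led by the endothelial list, with 927 and 316 Alk1_ECKO cells and 0 control cells, were counted as endothelial. Over all 1334 Alk1_ECKO cells, endothelial binding proteins were read. Igfbp3 was at 400.3 CPM, Igfbp4 at 737 CPM and Igfbp7 at 5895 CPM, against 0, 60.7 and 17.4 CPM in control. The groups are not alike, since the 27 control cells all lay in a cluster led by the microglial list, which held 91 of the Alk1_ECKO cells. Over all 1334 Alk1_ECKO cells Igf1r was at 7.82 CPM, against 48.3 CPM in endothelial cells of the same library.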

How the results depend on the processing

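Over 14 alternatives, 2 of them added after seeing the data, endothelial Igf1 and Igfbp3 stayed past 1.5-fold higher in all 14, at log2 ratios of 0.91 to 2.34 and 0.88 to 2.02. Igfbp5 passed the fold in 12 of 14 (0.45 to 3.59) and Igfbp7 in 2 (0.33 to 0.68). Igf1r ran from -0.59 to 0.03, Igfbp4 from -0.18 to 0.22 and Igf2 from -2.94 to 1.25. Igf2, with 18 control UMIs, passed the fold higher in 2 alternatives and lower in 3. It was higher at 1.15 with at least 2000 UMIs per cell and at 1.25 when the members could enter the variable genes. Averaging CPM over cells put Igf1 at 1.16 and Igfbp3 at 1.53, and Igf2 was lower at -2.26. Without cycling sub-clusters Igf1 was at 2.34 and Igfbp3 at 2.02, and Igf1r was lower at -0.586, just past the fold. A common mix took 5 of the 8 sub-clusters, without those led by Apod and Mgp, and 19.03% of it came from the Rgs5-led one. Under it Igf1 was at 0.91, Igfbp3 at 0.88 and Igfbp5 at 3.59, and Igf2 was lower at -2.94. Without cells holding a microglial marker UMI Igf1 was at 1.29, Igfbp3 at 1.92 and Igfbp5 at 2.02, and Igf2 was lower at -1.10. Igfbp3 was at 1.38 relative to the median gene, 1.43 under TMM scaling, which shifts every log2 ratio by 0.25, 1.62 at 5000 UMIs per cell and 1.03 with at most 5% mitochondrial UMIs. Igf2 in Müller glia or late progenitors reversed to -0.74 when the members could enter the variable genes. The cause of these changes was not tested. At resolution 0.6 astrocytes formed no class of their own, and 10 of 14 highest classes were as reported. Igf2 was then highest in Müller glia or late progenitors in both libraries. Igfbp5 was then highest in amacrine or ganglion cells in control and in mural cells in Alk1_ECKO. No paired analysis was possible because each group had 1 library.

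Precision is limited by 11 control mural cells, 20 and 19 astrocytes and 13 control endothelial Igfbp5 UMIs.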
